A study of Homo sapiens with 6 samples.

Results

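The secreted WNT proteins, the receptors that bind them and the secreted proteins that hold them back were followed across 3 uveal melanoma cell lines. The 44 genes were taken by name: every probe set annotated with exactly 1 gene symbol of the WNT, FZD, SFRP or DKK families, together with LRP5, LRP6, ROR1, ROR2, RYK, WIF1 and FRZB. They comprised 19 ligands, 10 Frizzled receptors, 5 co-receptors and 10 secreted inhibitors, among 18417 genes with such a probe set. DKK3 had a second probe set, and the one with the higher mean was used.

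The lines were 92.1, Mel 270 and Mel 290, all human and derived from uveal melanoma, a cancer of the melanocytes of the eye. Each was cultured with activated T cells from healthy volunteers or alone, for 64 h in both cases. The T cells, 1500000 per well, were held in an insert with a 0.4 µm membrane. The 3 lines were the replicates of both groups, with 1 array per line and condition, so 6 arrays in all. No line had a repeat culture. P-values of the co-culture test therefore rest on the spread between lines. Those of the line contrasts rest on how a difference between lines varied between the 2 conditions of single cultures. Both have 2 residual degrees of freedom. In both, a gene's spread is drawn toward that of all tested genes, a prior worth 3.1 degrees of freedom. Plating was at 80000 cells for 92.1 and 100000 for Mel 270 and Mel 290. Mel 290 was confluent when the medium was changed and the other lines nearly so. Line, number of cells plated and cell density therefore cannot be told apart.

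WNT proteins are lipid-modified signals that act over short distances. In the β-catenin branch, a WNT bridges a Frizzled receptor and LRP5 or LRP6, which stabilises β-catenin and lets it act with TCF/LEF factors on target genes. Other WNTs, WNT5A above all, act through Frizzled with ROR1, ROR2 or RYK on cell shape and migration, and in melanoma cells WNT5A is known for its link to motility. SFRP proteins, FRZB and WIF1 bind WNTs directly, whereas DKK1, DKK2 and DKK4 bind LRP5 and LRP6.

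All values are log2 signals as deposited, and a change is a line's co-culture signal less its signal without T cells. Array medians lay between 6.63 and 6.69. A gene was tested when its mean over the 6 arrays reached 5.80, the 25th percentile of the annotated probe sets, which kept 13808 genes. Of the 44 genes, 34 were tested: 16 of 19 ligands, 10 of 10 receptors, 4 of 5 co-receptors and 4 of 10 inhibitors. The other 10 were WNT2, WNT8A, WNT8B, ROR2, DKK2, DKK4, FRZB, SFRP2, SFRP4 and WIF1, and 8 of them lay below that level on all 6 arrays. The exceptions were WNT8A, which reached 5.88, and ROR2, which reached 6.02, both in co-cultured Mel 290. DKK1 passed only through Mel 290.

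Promoter sequence is shown for 3 genes on which the results below turn: WNT5A, with the largest mean change in co-culture among the 44, and FZD8 and DKK1, both high in Mel 290. Each window holds the 250 bases before an annotated start, from RefSeq on build GRCh38.p14, read 5′ to 3′ on the gene's strand. They are DKK1 at chr10:52314031-52314280 on the plus strand, FZD8 at chr10:35642297-35642546 on the minus strand, and WNT5A on the minus strand at chr3:55487307-55487556 (start 1) and chr3:55481399-55481648 (start 2). Capitals mark the TCF/LEF core CTTTG, or CAAAG where it lies on the opposite strand, and the TATA box TATAAA.
DKK1: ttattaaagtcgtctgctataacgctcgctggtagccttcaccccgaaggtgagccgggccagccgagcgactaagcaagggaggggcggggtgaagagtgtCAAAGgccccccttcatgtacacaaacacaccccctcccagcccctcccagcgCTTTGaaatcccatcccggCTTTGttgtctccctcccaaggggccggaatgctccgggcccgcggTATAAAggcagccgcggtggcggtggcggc
FZD8: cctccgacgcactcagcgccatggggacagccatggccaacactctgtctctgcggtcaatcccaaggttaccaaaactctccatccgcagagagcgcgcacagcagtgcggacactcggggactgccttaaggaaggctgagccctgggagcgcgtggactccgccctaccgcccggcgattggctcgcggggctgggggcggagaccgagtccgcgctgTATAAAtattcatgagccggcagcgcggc
WNT5A start 1: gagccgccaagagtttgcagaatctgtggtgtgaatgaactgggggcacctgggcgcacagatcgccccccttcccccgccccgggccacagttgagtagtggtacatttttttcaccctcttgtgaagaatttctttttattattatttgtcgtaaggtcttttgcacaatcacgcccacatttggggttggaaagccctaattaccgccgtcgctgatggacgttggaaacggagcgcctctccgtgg
WNT5A start 2: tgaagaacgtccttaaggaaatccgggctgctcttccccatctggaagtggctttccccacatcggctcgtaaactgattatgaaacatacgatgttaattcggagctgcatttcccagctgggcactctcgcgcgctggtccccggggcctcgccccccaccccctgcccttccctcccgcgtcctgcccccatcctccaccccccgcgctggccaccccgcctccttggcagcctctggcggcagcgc

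DKK1, itself a known target of β-catenin signalling, held 3 TCF/LEF cores whose first bases lay 148, 95 and 76 bases before the start, and a TATA box at 30 bases. FZD8 held a TATA box at 29 bases. Neither WNT5A window held either pattern. Windows were found for 31 of the 44 genes, 34 windows in all. The TCF/LEF core stood in 6 of these 34 (17.6%), against 42.1% of all 35116 windows, and the TATA box in 3 (8.82%), against 10.7%.

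Patterns read by factors that T cell cytokines activate were searched on both strands as well. The STAT pattern TTCNNNGAA was in 1 member window, that of ROR1, against 6.57% of all windows. An interferon-response pattern (GAAA, any 2 bases, GAAA) was in 0 of the 34, against 3.02%. The kappaB pattern (GGG, any 2 bases, TTTCC) was in 1, that of WNT10A, against 1.73%. The answer for kappaB depended on the spelling: with the leading G dropped, a form run after the first search had been seen, 5 windows matched (14.7%, against 5.48% of all), among them WNT5A start 1 at 59 bases. The interferon pattern without its last A matched 1 window, that of SFRP4, against 6.88% of all. A match describes the letters only.

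**Figure D1:**
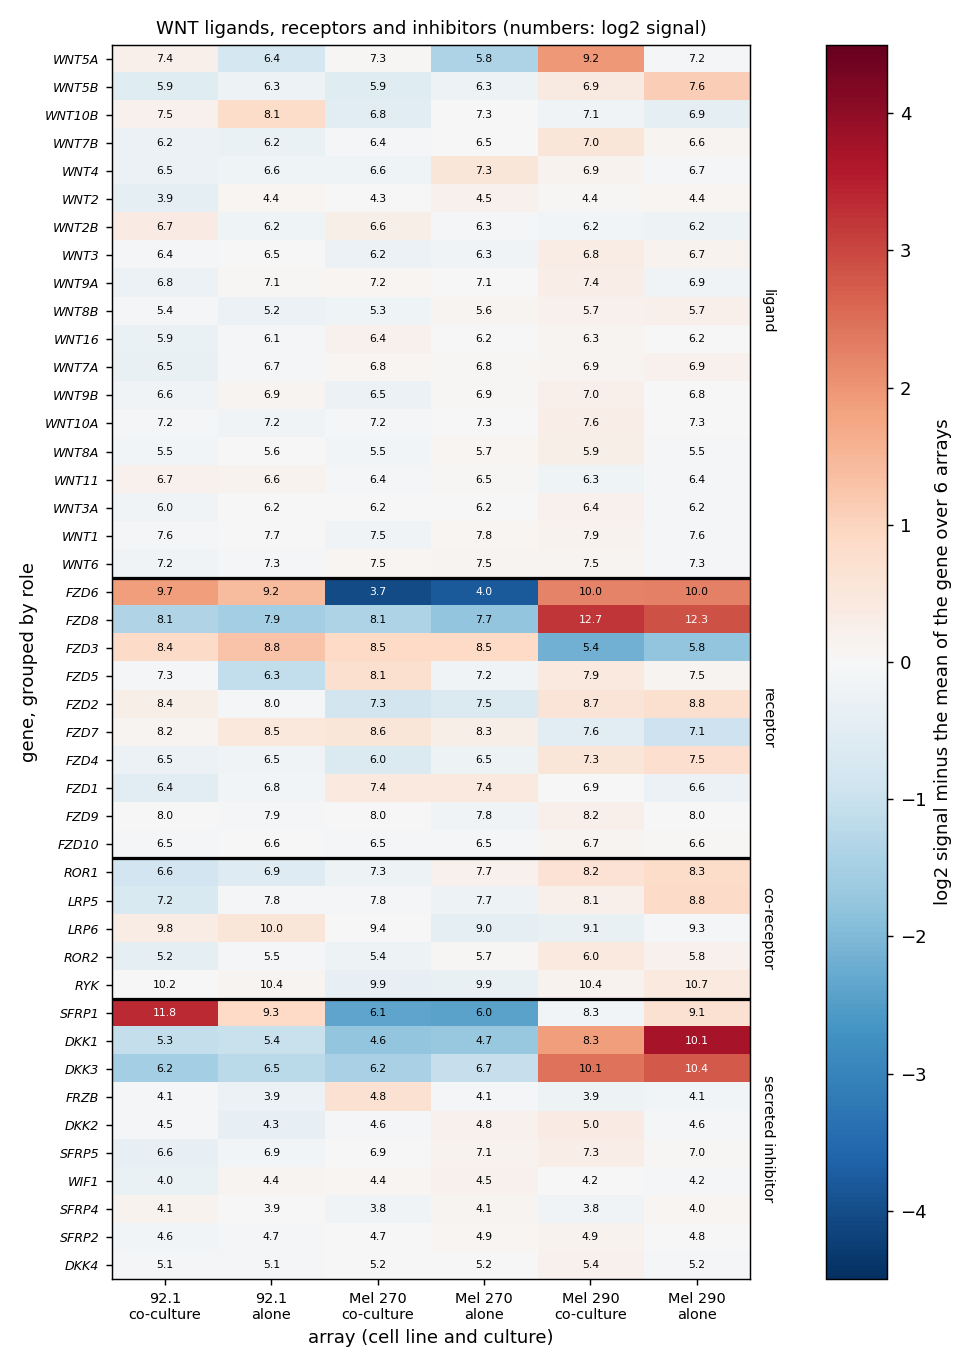
Log2 signal of each of the 44 genes (rows, grouped by role) on the 6 arrays (columns, each line in co-culture and then alone), with colour showing the difference from the gene's own mean over the arrays. FZD6 is low in Mel 270, FZD8, DKK1 and DKK3 are high in Mel 290, and most ligand rows are nearly even.

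The first comparison asked what T cell co-culture did to these genes. No gene of the 44 passed the test: 0 of the 34 tested had an adjusted p under 0.05 in limma with cell line as a block, against 62 of 13808 genes (0.449%). Without adjustment, 4 of the 34 had p under 0.05, against 20.0% of tested genes: WNT5A and FZD5 with higher values in co-culture and WNT5B and DKK3 with lower ones. The median of the mean changes was -0.02 over the 34 and -0.04 over all tested genes. The 3 pairs allow an exact two-sided permutation test no p below 0.25. In bulk RNA, fewer cells of a type and less RNA per cell cannot be told apart.

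WNT5A had the largest mean change of the 44 genes. WNT5A (probe set 8088180, chromosome 3) had log2 signals of 7.44, 7.27 and 9.16 in co-cultured 92.1, Mel 270 and Mel 290, against 6.41, 5.80 and 7.16 in the same lines alone. Each line was higher in co-culture than alone, and the lowest co-culture value lay above the highest value alone. The changes were 1.03 in 92.1, 1.47 in Mel 270 and 2.00 in Mel 290. Their mean was 1.50 ± 0.49 (SD, n = 3 lines, 2.83-fold), with a limma adjusted p of 0.0702 (unadjusted p = 0.0008), which missed the threshold. WNT5A was also the 1 gene of the 34 tested that was at least 1 log2 unit higher in co-culture in all 3 lines, against 0.898% of tested genes.

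WNT5B, its close relative, had the opposite sign. WNT5B had log2 signals of 5.93, 5.94 and 6.88 in co-cultured 92.1, Mel 270 and Mel 290, against 6.26, 6.25 and 7.59 alone. All 3 lines were lower in co-culture, but the groups overlapped because Mel 290 was higher than the others in both. The mean change was -0.45 ± 0.22 (SD, n = 3 lines), with a limma adjusted p of 0.184.

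The other 17 ligands, which include the β-catenin activators WNT1, WNT3A and WNT10B, differed little. Their changes lay between -0.75, for WNT4 in Mel 270, and 0.56, for WNT2B in 92.1. WNT2B was higher in all 3 lines, by 0.56, 0.33 and 0.10. Over all 19 ligands, 16 spanned less than 1 log2 unit across the 6 arrays.

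**Figure D2:**
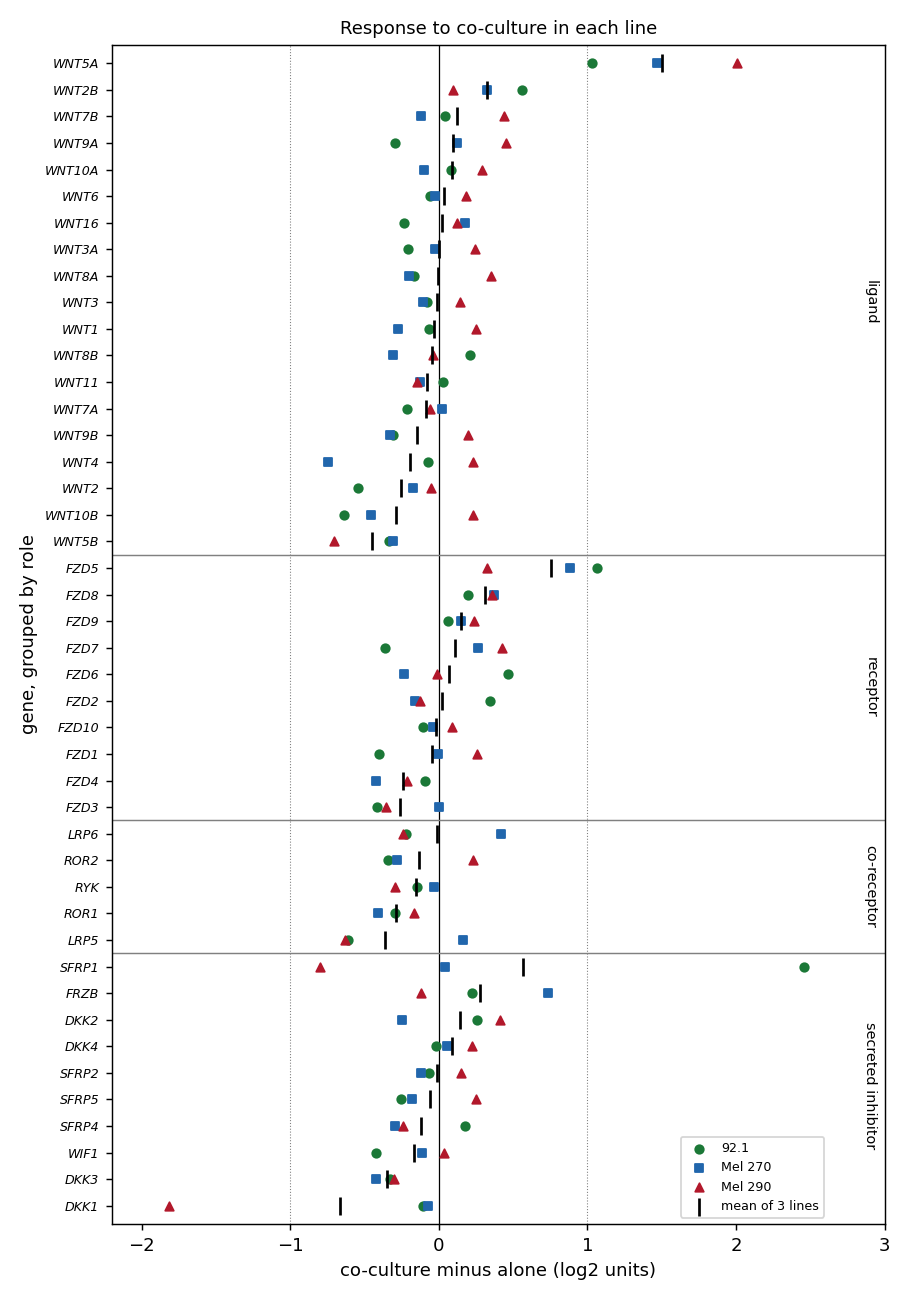
Co-culture minus alone (log2, horizontal axis) in each of the 3 lines for the 44 genes (vertical axis, by role), with a tick at the mean and dotted lines at -1 and 1. WNT5A is the 1 gene with all 3 points beyond 1, and SFRP1 and DKK1 each have a single distant point.

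Among the receptors, FZD5 had the largest mean change. FZD5 had log2 signals of 7.34, 8.13 and 7.85 in co-cultured 92.1, Mel 270 and Mel 290, against 6.28, 7.25 and 7.53 alone. Every line was higher in co-culture, by 1.06, 0.88 and 0.32, and the groups overlapped. The mean of 0.76 ± 0.39 (SD, n = 3 lines, 1.69-fold) had a limma adjusted p of 0.124. FZD8 was also higher in each line, by 0.19, 0.37 and 0.36, with a limma adjusted p of 0.262. The co-receptors LRP5, LRP6, ROR1 and RYK had mean changes between -0.36 and -0.01, none past the threshold.

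The inhibitors SFRP1 and DKK1 each differed between conditions mainly in 1 line. SFRP1, which binds WNT proteins, had log2 signals of 11.79, 6.05 and 8.30 in co-cultured 92.1, Mel 270 and Mel 290, against 9.33, 6.01 and 9.10 alone. It was higher in co-cultured 92.1 by 2.46, nearly level in Mel 270 (0.04) and lower in Mel 290 by 0.80. The mean of 0.57 ± 1.69 (SD, n = 3 lines) had a limma adjusted p of 0.694, and without 92.1 it was -0.38.

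DKK1, which blocks LRP5 and LRP6, had log2 signals of 5.33, 4.63 and 8.29 in co-cultured 92.1, Mel 270 and Mel 290, against 5.43, 4.71 and 10.11 alone. Both values in 92.1 and in Mel 270 lay below 5.80, so only Mel 290 had a signal above that level. The change in Mel 290 was -1.82, and the mean over lines was -0.67 ± 1.00 (SD, n = 3 lines, limma adjusted p = 0.414), or -0.09 without Mel 290.

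DKK3, a DKK relative that is not an established LRP ligand, had small changes of the same sign. They were -0.33, -0.42 and -0.30, with a mean of -0.35 ± 0.06 (SD, n = 3 lines) and a limma adjusted p of 0.209. Differences between the lines' responses could not be tested with 1 array per line and condition. By size alone, 3 tested genes were at least 1 log2 unit apart in 92.1 (WNT5A, FZD5 and SFRP1), against 6.34% of tested genes. In Mel 270 there was 1 (WNT5A), against 9.81%, and in Mel 290 there were 2 (WNT5A and DKK1), against 4.37%.

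The second comparison set each line against the mean of the other 2 over both conditions, in the same limma fit. In 14 of the 34 tested genes at least 1 contrast passed the threshold: 7 of 10 receptors, 2 of 4 co-receptors, 3 of 4 inhibitors and 2 of 16 ligands. Over all tested genes the share was 33.9%. The counts include DKK1, which was tested only because it was high in Mel 290. In Mel 290, 10 genes were higher, against 11.3% of tested genes, and 2 were lower, against 14.9%. In Mel 270, 1 was higher, against 6.83%, and 8 were lower, against 7.62%. In 92.1, 3 were higher, against 9.73%, and 4 were lower, against 6.18%. The 3 contrasts share all 6 arrays, so a gene that is high in 1 line alone can be called low in both others.

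The receptor FZD8 was high in Mel 290. FZD8 (probe set 7933075, chromosome 10) had log2 signals of 12.68 in co-culture and 12.32 alone in Mel 290, against 8.12 and 7.93 in 92.1 and 8.07 and 7.70 in Mel 270. Both Mel 290 values lay above all 4 others. The contrast for Mel 290 was 4.54 (SE 0.13, 23.3-fold, limma adjusted p = 0.0003).

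FZD6, which can dampen β-catenin signalling, was low in Mel 270. FZD6 (probe set 8147766, chromosome 8) had log2 signals of 3.74 in co-culture and 3.98 alone in Mel 270, against 9.65 and 9.18 in 92.1 and 10.00 and 10.02 in Mel 290. Both Mel 270 values lay below the tested level of 5.80 and under every other array. The contrast for Mel 270 was -5.85 (SE 0.19, limma adjusted p = 0.0011), or -3.91 with low values raised to 5.80. FZD6 was also called higher in Mel 290 (3.37), but without Mel 270 that difference was 0.59 with a limma adjusted p of 0.0927.

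FZD3, a receptor of the planar polarity branch, was low in Mel 290. FZD3 (probe set 8145611, chromosome 8) had log2 signals of 5.43 in co-culture and 5.78 alone in Mel 290, against 8.43 and 8.84 in 92.1 and 8.49 and 8.49 in Mel 270. The Mel 290 values stood apart from the other 4. The contrast was -2.96 (SE 0.15, limma adjusted p = 0.0010).

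Smaller differences were called for 4 further receptors. FZD2 had log2 signals of 8.72 in co-culture and 8.84 alone in Mel 290, against 8.38 and 8.03 in 92.1 and 7.31 and 7.47 in Mel 270. FZD2 was higher in Mel 290 by 0.98 (limma adjusted p = 0.0150), a call lost without Mel 270, where the contrast was 0.57 (adjusted p = 0.10). FZD4, the receptor that also binds norrin in retinal vessels, had 7.25 in co-culture and 7.46 alone in Mel 290, against 6.45 and 6.55 in 92.1 and 6.05 and 6.47 in Mel 270. FZD4 was higher in Mel 290 by 0.98 (limma adjusted p = 0.0101). The Mel 290 values of both genes lay above all the others. FZD7 had 7.57 in co-culture and 7.14 alone in Mel 290, against 8.18 and 8.54 in 92.1 and 8.58 and 8.32 in Mel 270. FZD7 was lower in Mel 290, with a contrast of -1.05 (limma adjusted p = 0.0211). FZD5 was lower in 92.1, with a contrast of -0.88 (limma adjusted p = 0.0422), a call lost with cyclic loess (0.0578) and without Mel 290 (0.0653).

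**Figure D3:**
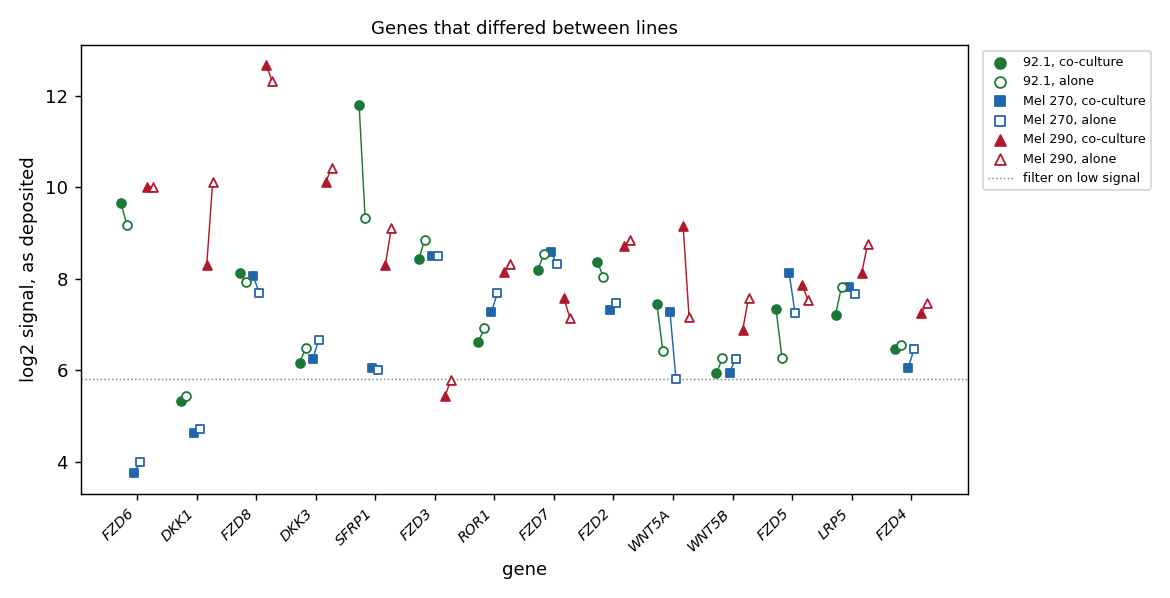
Log2 signal (vertical axis) of the 14 genes called in at least 1 line contrast, by line, with filled points for co-culture at the left and open points for growth alone at the right. In most panels the 2 conditions of a line lie close together and 1 line stands apart.

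The co-receptors called were ROR1 and LRP5. ROR1, a receptor for WNT5A, had log2 signals of 8.15 in co-culture and 8.32 alone in Mel 290, against 6.62 and 6.91 in 92.1 and 7.27 and 7.68 in Mel 270. The 3 lines did not overlap. The contrast for Mel 290 was 1.12 (limma adjusted p = 0.0062), with an adjusted p of 0.0624 without 92.1. LRP5 had log2 signals of 8.13 in co-culture and 8.76 alone in Mel 290, against 7.21 and 7.82 in 92.1 and 7.82 and 7.66 in Mel 270. LRP5 was higher in Mel 290 by 0.82 (SE 0.22, limma adjusted p = 0.0477), and the call was lost without the filter on low values (adjusted p = 0.0525), with cyclic loess (0.0550) and without 92.1 (0.138). RYK, a WNT-binding receptor, had 10.22, 9.88 and 10.41 in co-cultured 92.1, Mel 270 and Mel 290, against 10.37, 9.91 and 10.70 alone. LRP6 had 9.76, 9.39 and 9.08 in co-cultured 92.1, Mel 270 and Mel 290, against 9.98, 8.97 and 9.32 alone. RYK and LRP6 passed in no contrast.

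DKK1 and DKK3 were both high in Mel 290. For DKK1 (probe set 7927631, chromosome 10), whose values are given above, the difference is a description with no test, since the gene passed the filter through Mel 290 alone. With the low values of the other lines raised to 5.80, Mel 290 was 3.40 log2 units higher. DKK3 (probe set 7946661) had log2 signals of 10.12 in co-culture and 10.42 alone in Mel 290, against 6.15 and 6.48 in 92.1 and 6.24 and 6.66 in Mel 270. The Mel 290 arrays stood above the rest, with a contrast of 3.89 (SE 0.13, 14.8-fold, limma adjusted p = 0.0004). The second DKK3 probe set lay between 4.75 and 5.20 on all 6 arrays and did not show this difference.

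SFRP1 (probe set 8150428, chromosome 8) was low in Mel 270 in both conditions, with a contrast of -3.60 (SE 0.66, limma adjusted p = 0.0307). It was higher in 92.1 by 3.20 (SE 0.66, limma adjusted p = 0.0368), which includes the co-culture difference in that line. The 92.1 call was lost without Mel 270, at 1.86 (limma adjusted p = 0.108). Without Mel 290 the remaining difference, 4.53 between 92.1 and Mel 270, had an adjusted p of 0.0552, which ended both calls. Grown alone, 92.1 was 3.32 and Mel 290 3.09 above Mel 270.

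Of the ligands, WNT5A and WNT5B were both higher in Mel 290. The WNT5A contrast was 1.43 (SE 0.23, limma adjusted p = 0.0125) and the WNT5B contrast 1.14 (SE 0.15, limma adjusted p = 0.0082). The WNT5A contrast includes the larger co-culture change of Mel 290, whose lead over 92.1 was 0.75 alone and 1.72 in co-culture. Over Mel 270 the lead was 1.36 and 1.89. For WNT5A, Mel 290 alone, at 7.16, lay below co-cultured 92.1 (7.44) and Mel 270 (7.27). WNT5A was lower in Mel 270, with a contrast of -1.01 (limma adjusted p = 0.0465), a call lost without the filter (0.0507) and without Mel 290, where the contrast was -0.39 (adjusted p = 0.256).

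Among lines grown alone, described with no test, 6 of the 34 genes were at least 2 log2 units apart: FZD6, DKK1, FZD8, DKK3, SFRP1 and FZD3. This compares with 8.39% of tested genes. None was a ligand, and the largest gap between lines for a ligand was 1.36. The 28 genes not given array by array spanned 3.79 to 8.19 in signal, their changes in co-culture lay between -0.75 and 0.74, and their gaps between lines were at most 1.22. The median gap was 0.77 over the 34 genes and 0.58 over all tested genes.

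The rest of the pathway was read through 7 lists with 82 genes, of which 71 were tested. None of the 71 passed in co-culture, and 10 had an unadjusted p under 0.05, against 20.0% of tested genes. RSPO3, an R-spondin that strengthens WNT signals at the receptor, had log2 signals of 8.68, 5.18 and 8.82 in co-cultured 92.1, Mel 270 and Mel 290, against 5.25, 5.48 and 6.10 alone. It was higher in co-cultured 92.1 (3.44) and Mel 290 (2.72) and slightly lower in Mel 270 (-0.30). The mean change was 1.95 ± 1.98 (SD, n = 3 lines), with a limma adjusted p of 0.234. With 1 line left out the mean was 1.21 without 92.1, 3.08 without Mel 270 and 1.57 without Mel 290. Its values alone averaged under 5.80, so it passed the filter through the co-culture arrays, and these values are a description.

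TLE4, a co-repressor of TCF/LEF factors, was higher in each line, with a mean of 1.17 ± 0.48 (SD, n = 3 lines) and a limma adjusted p of 0.0860. APC, which helps to degrade β-catenin, was lower in each line, with a mean of -0.69 ± 0.13 (SD, n = 3 lines) and a limma adjusted p of 0.0883. MYC, a β-catenin target in colon, had a mean of -0.96 ± 0.27 (SD, n = 3 lines) and a limma adjusted p of 0.0781. Other genes listed as targets went both ways. FGF9 had a mean of -1.34 ± 1.51 (limma adjusted p = 0.276), with 0.40 in Mel 290. CYP1B1 had a mean of 1.26 ± 1.90 (limma adjusted p = 0.399), with 3.44 in 92.1. The Mel 290 change of CYP1B1 was 0.32, and its Mel 270 signals, 4.85 co-cultured and 4.84 alone, were below 5.80. BAMBI was higher in each line, with a mean of 0.69 ± 0.40 (limma adjusted p = 0.142). AXIN2, a widely used readout of β-catenin signalling, lay between 6.30 and 6.71 on all 6 arrays; it was chosen after its values were seen.

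Between lines, 12 of the 71 genes were higher and 10 lower in Mel 290, against 11.3% and 14.9% of tested genes. In Mel 270, 5 were higher and 9 lower, against 6.83% and 7.62%, and in 92.1, 8 were higher and 6 lower, against 9.73% and 6.18%. WLS, the carrier that takes WNT proteins to the cell surface, was low in Mel 270. WLS had log2 signals of 5.90 in co-culture and 5.61 alone in Mel 270, against 9.88 and 9.85 in 92.1 and 9.43 and 9.42 in Mel 290. The contrast was -3.89 (limma adjusted p = 0.0011). SERPINF1, a secreted glycoprotein, was lower in Mel 270 (-3.72, limma adjusted p = 0.0022). In Mel 290, APC was lower (-2.06, limma adjusted p = 0.0015) and the heparan sulfate proteoglycan SDC2 higher (2.87, limma adjusted p = 0.0026).

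**Figure D4:**
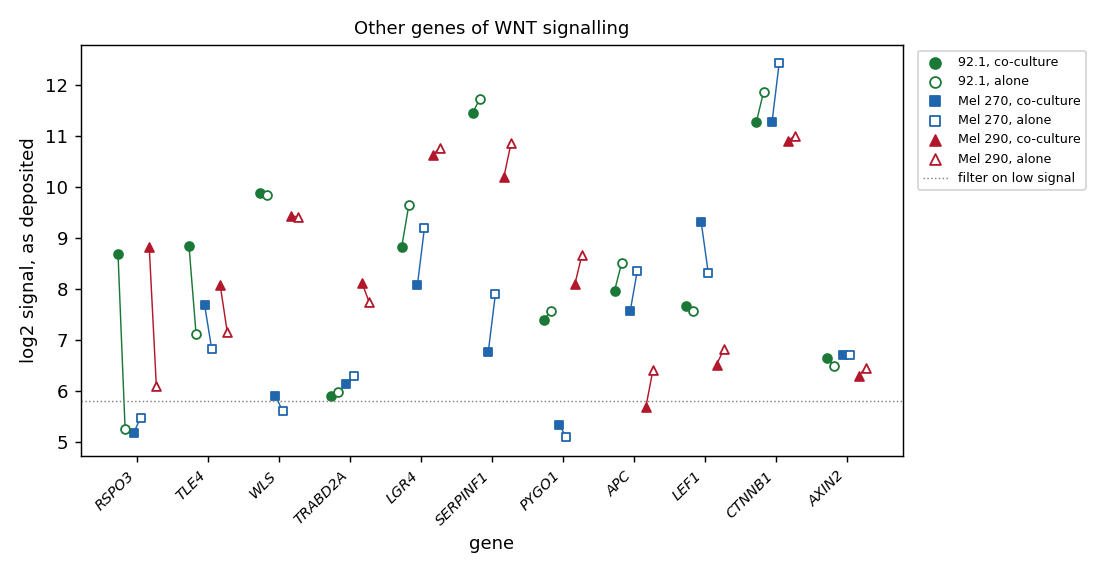
Log2 signal (vertical axis) of 11 other pathway genes by line, with filled points for co-culture at the left and open points for growth alone at the right. RSPO3 is higher in co-cultured 92.1 and Mel 290, WLS is low in Mel 270, and AXIN2 is level.

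Markers of other cells were read beside these results. Of 16 T cell markers, 8 lay below 5.80 on all arrays and 7 were tested, none past the threshold in co-culture. Their mean level was 5.35 to 6.01 in co-culture and 5.38 to 5.85 alone. CD3D, CD3E, CD3G, CD2 and PTPRC reached at most 5.70, but other T cell markers had higher signals. The lowest value of CD7 was 8.12, in 92.1 alone, and CD8A lay between 6.04 and 6.73. GZMB reached 7.18 in co-cultured Mel 270, with changes of -0.14 in 92.1, 0.40 in Mel 270 and 0.41 in Mel 290. IL7R had 10.43 in co-culture and 9.75 alone in Mel 290, against at most 3.96 in the other lines. Of the melanocyte markers, 10 of 11 tested were lower in Mel 290, against 14.9% of tested genes. MLANA, PMEL, TYR and TYRP1 lay between 4.64 and 6.10 in Mel 290, against 9.39 to 13.19 in 92.1 and Mel 270. Others stood less apart. MITF had 8.16 in co-culture and 8.96 alone in Mel 290, against 8.93 to 11.03 in the other lines. SLC45A2 had 5.27 and 6.66, near its 5.46 and 6.56 in Mel 270. GPR143, at 8.96 and 9.76 in Mel 290, was the marker that did not pass. Of 10 fibroblast markers 7 were tested, and 2, FAP and PDGFRB, were higher in Mel 290, against 11.3% of tested genes. In the other lines FAP lay between 4.02 and 4.29, and PDGFRB, between 5.58 and 5.99, averaged under 5.80. Both thus passed the filter through Mel 290, and their differences are a description with no test. The contrasts of COL1A1, COL1A2, COL3A1, THY1 and LUM there were 0.17, 0.21, 0.18, 0.09 and 1.48, none past the threshold. The part of these differences in the Mel 290 results was not tested.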

How the data were processed

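Total RNA of 3 cell lines in 2 conditions was measured on 6 arrays. The authors deposited log2 signals made with Affymetrix Expression Console 1.2.0.20, per the submitters' processing notes; the normalization is not given in the sources used here. Of 33297 probe sets, 19460 had 1 gene symbol. The highest-mean probe set per gene was kept, and genes with a mean under 5.80 were left out. Co-culture was tested against growth alone with limma 3.58.1 in R 4.3.3 (lmFit, eBayes), blocking on line, since all lines occur in both conditions. Lines were set against each other in the same fit, with culture condition as the covariate. The Benjamini-Hochberg adjustment covered 13808 genes, with a threshold of 0.05; the fit left 2 residual degrees of freedom. The procedure was tested on simulated data. The number of arrays limits precision.

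Members and gene lists were chosen with earlier results of these data known. Values on all arrays are given for members called in a contrast, 1 log2 unit apart between conditions in a line, 2 apart between lines alone, or among the 5 highest means. Promoter patterns were chosen after the sequences were seen. Alternatives were other filters, normalizations and probe set rules, eBayes with trend, no block, and each line left out. Similar family members can bind each other's probes.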

Additional observations from a re-analysis of the deposited data

How the results depend on the processing

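Under each alternative tried, 0 of the 44 genes were called in co-culture. For WNT5A the adjusted p in limma ranged from 0.059 to 0.855, the highest without the replicate block. Over all genes, 57 were called higher and 5 lower in co-culture; without the replicate block these were 18 and 0, and the lower count was 9 with the filter at the median, 1 with cyclic loess and 8 with eBayes trend and robust. With 1 line left out, the counts were 47 to 76 higher and 2 to 9 lower.

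With 1 line left out, genes called in the line contrasts ranged from 374 to 2094 higher and 186 to 1493 lower in 92.1, 186 to 1343 and 374 to 1147 in Mel 270, and 1147 to 1493 and 1343 to 2094 in Mel 290. Members called ranged from 1 to 3 higher and 0 to 9 lower in 92.1, 0 to 2 and 1 to 9 in Mel 270, and 9 to 9 and 2 to 3 in Mel 290. Of the 28 member calls, 24 held in every alternative with all 3 lines in which the gene was tested. Of these, 9 also held with either of the other lines left out: FZD6 in Mel 270 and 8 of 12 in Mel 290. With the filter at the median, DKK1, FZD4 and WNT5B were not tested. The 28 include DKK1 in Mel 270 and Mel 290, and the 8 include DKK1 in Mel 290. DKK1 passed the filter through Mel 290 alone, so its place in these counts is a description with no test. Without Mel 290, 92.1 and Mel 270 are set against each other alone. Leaving out a line turned signs. The ranges were -0.38 to 1.25 for SFRP1 in co-culture, -0.59 to 5.56 for FZD6 and -4.47 to 0.14 for FZD8 in 92.1, and -3.83 to 0.13 for DKK3 and -0.14 to 2.89 for FZD3 in Mel 270. Calls also lost were FZD5 in 92.1 with cyclic loess (adjusted p = 0.0578), DKK1 in Mel 270 with low values raised to the filter level (0.0603) and WNT5A in Mel 270 without a filter (0.0507). The cause was not tested. The kappaB match in WNT5A appeared only with the 9-letter form (5 windows, against 1).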
